A study of Mus musculus with 16 samples.

Results

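The B cell genes described here are Cd79a, Cd79b, Ms4a1, Blk, Pax5, Fcrla and Cd22, measured in whole hearts of mice exposed to an aggressor. They were chosen by gene name: a row of the array counted when it was no control spot and carried the name of a member. All 7 genes were found, with 9 of the 55681 probes of the array. A level below is the log2 brightness of a probe minus the log2 brightness at the 75th percentile of the same array, so that 0 means as bright as that percentile. Brightness depends on the probe, and levels were compared between hearts for a probe but not between probes. A probe was tested if, in some group, the scanner software marked all 4 arrays as well above background. Cd79a, Cd79b, Ms4a1 and Cd22 passed this filter and are 4 of the 22648 features tested. Blk, Pax5 and Fcrla did not pass it.

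The study modelled posttraumatic stress disorder in C57BL/6 mice, and each of its 16 arrays held the total RNA of 1 heart. In the groups T1R1, T2R1 and T3R1, with 4 hearts each, mice met the aggressor on 1, 2 or 3 days and then rested for 1 day. The 4 control mice sat in mesh boxes without an aggressor, and their labels name the 2-day arm, also with 1 day of rest, so T1R1 and T3R1 have no control labelled for their own duration. No genetic change or further agent is named for any group, age and sex are not given in the sources used here, and the general treatment text gives longer exposures than the group names, which were followed.

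B cells recognise antigen through a membrane immunoglobulin that cannot signal alone. The signal is carried by Cd79a and Cd79b, a pair of chains whose tails are phosphorylated by Src-family kinases, of which Blk is the member most typical of B cells. Pax5 is the transcription factor that commits progenitors to the lineage and keeps Cd79a and other B cell genes on. Ms4a1 encodes CD20, a surface protein of mature B cells, Fcrla an Fc receptor-like protein kept inside the cell, and Cd22 a sialic acid-binding receptor that dampens the signal. The heart holds resident and passing B cells, and fat and lymphoid tissue near it hold B cells too.

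The 60-base probes of the members are shown because the agreement and disagreement of their values bears on what was measured. Whole probes are given where the array design places them across more than 60 bases of the genome, and stretches of 30 bases otherwise. All are written 5′ to 3′ as in the scanner files, with positions of the mm9 build as the array design gives them.
Cd79a, the first probe, its last 30 bases, chr12:53180558-53180617, with a polyadenylation signal in capitals: gtgatAATAAAtccttcccaaagcaaaaaa
Cd79a, the second probe, chr7:25684357-25684614: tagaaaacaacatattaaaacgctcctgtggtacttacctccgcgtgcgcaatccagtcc
Cd79b, the first 30 bases, chr11:106172780-106172839: agagacttgttggaatctgcaaatggactc
Ms4a1, the first 30 bases, chr19:11325367-11325426: gctgtgctttgagattctttccaaatggca
Blk, chr14:63997333-63998470: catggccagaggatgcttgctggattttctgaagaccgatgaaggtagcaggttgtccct
Pax5, the first probe, its first 30 bases, chr4:44658421-44658480: gtttgagagacagcactactctgacatctt
Pax5, the second probe, chr4:44550354-44582908: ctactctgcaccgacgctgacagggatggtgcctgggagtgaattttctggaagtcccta
Fcrla, the first 30 bases, chr1:172848103-172848162: ctgttcgagtgtaaataaatgcatacaggg
Cd22, the first 30 bases, chr7:31651249-31651308, with a repeat of AACC in capitals: gaaaaatgaaaAACCAACCAACCAACCaaa
The first Cd79a probe stands out in that the design places it on chromosome 12, whereas the second probe and the RefSeq promoter window of Cd79a lie on chromosome 7. Its letters run through a polyadenylation signal and end in 6 As. The Fcrla probe also holds the letters AATAAA, left unmarked above. The Cd22 probe is simple in composition, with 46 of its 60 bases (76.7%) A or C and AACC 5 times. The probe of Blk, the second probe of Cd79a and the second probe of Pax5 span 1138, 258 and 32555 bases of the genome.

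The arrays lay on 2 slides of 8. Control and T3R1 shared slide 1 and its scan, and T1R1 and T2R1 shared slide 2 and its scan. Only T3R1 minus control and T2R1 minus T1R1 therefore stayed within a slide, and in the other comparisons slide and exposure cannot be told apart. From 46.5% to 67.1% of the 59305 spots that were not controls were well above background, the lowest share being that of T1R1 replicate 3. Control replicate 1 stood apart, with a brightness of 547 scanner units at its 75th percentile against 257 to 273 on the other controls and 283 to 407 on the exposed arrays, and a mean correlation across genes of 0.970 with the other controls. The 8 cardiomyocyte markers were well above background on all 16 arrays, as their tissue label has it. Precision is limited by having 4 arrays in a group.

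Cd79b, the Igβ chain, was detected above background in all 16 hearts. Its level was 2.00, -0.49, -0.89 and -0.15 in T1R1 hearts and 0.07, 0.34, -0.57 and -1.17 in T2R1 hearts. It was -0.49, -1.25, -0.85 and 0.83 in T3R1 hearts, against 2.25, -1.41, -0.24 and 0.69 in control hearts. The highest hearts were control replicate 1 and T1R1 replicate 1, followed by T3R1 replicate 4 and control replicate 4, and every group overlapped every other. The mean was 0.12 ± 1.29 in T1R1, -0.34 ± 0.68 in T2R1, -0.44 ± 0.90 in T3R1 and 0.32 ± 1.55 in control (SD, n = 4 each). The control hearts alone spanned 12.7-fold, which is also the range over all 16.

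Ms4a1 varied most among the members that passed the filter. Its level was 0.89, -2.85, -4.77 and -2.48 in T1R1 hearts and -2.05, -1.16, -3.20 and -3.65 in T2R1 hearts. It was -2.64, -3.44, -3.64 and -0.55 in T3R1 hearts, against 0.82, -3.87, -3.19 and -1.20 in control hearts. The hearts with high Ms4a1 were those with high Cd79b, and again each group held high and low hearts. Control hearts, all well above background, spanned 25.9-fold. The 16 hearts spanned 50.4-fold, but the lowest of them, T1R1 replicate 3, was not well above background. Group means were -2.30 ± 2.35 in T1R1, -2.51 ± 1.13 in T2R1, -2.57 ± 1.41 in T3R1 and -1.86 ± 2.12 in control (SD, n = 4 each).

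Cd79a, the Igα chain, was read by 2 probes, of which the first was above background on all 16 arrays and represents the gene. Its level was 0.07, -1.79, -0.07 and -1.53 in T1R1 hearts and -1.45, -1.15, -1.56 and -1.56 in T2R1 hearts. It was -2.24, -2.46, -2.19 and -0.96 in T3R1 hearts, against 0.02, -2.04, -2.21 and -1.13 in control hearts. T1R1 replicate 1, control replicate 1 and T3R1 replicate 4 were high here too, but so was T1R1 replicate 3, where Ms4a1 was lowest. The second probe had its lowest level of all hearts, -4.79, on that same T1R1 replicate 3 and was not well above background there. The probes correlated at r = 0.45 over 16 hearts and at 0.80 without T1R1 replicate 3. The level of Cd79a on that heart is therefore uncertain, and with it the T1R1 mean of -0.83 ± 0.97, which stands against -1.43 ± 0.19 in T2R1, -1.96 ± 0.68 in T3R1 and -1.34 ± 1.02 in control (SD, n = 4 each).

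Cd22 did not share this pattern. Its level was -0.94, -1.98, -1.55 and -0.90 in T1R1 hearts and -0.92, -1.05, -1.03 and -0.99 in T2R1 hearts. It was -1.30, -1.12, -1.23 and -1.05 in T3R1 hearts, against -1.22, -1.77, -0.91 and -0.98 in control hearts. Its range over the 16 hearts was 2.12-fold, and neither control replicate 1 nor T1R1 replicate 1 stood out. Means were -1.34 ± 0.52 in T1R1, -1 ± 0.06 in T2R1, -1.17 ± 0.11 in T3R1 and -1.22 ± 0.39 in control (SD, n = 4 each). All values of Cd22 here and below rest on 1 probe, with 76.7% of its bases A or C. Whether that probe reads Cd22 alone was not tested.

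**Figure D1:**
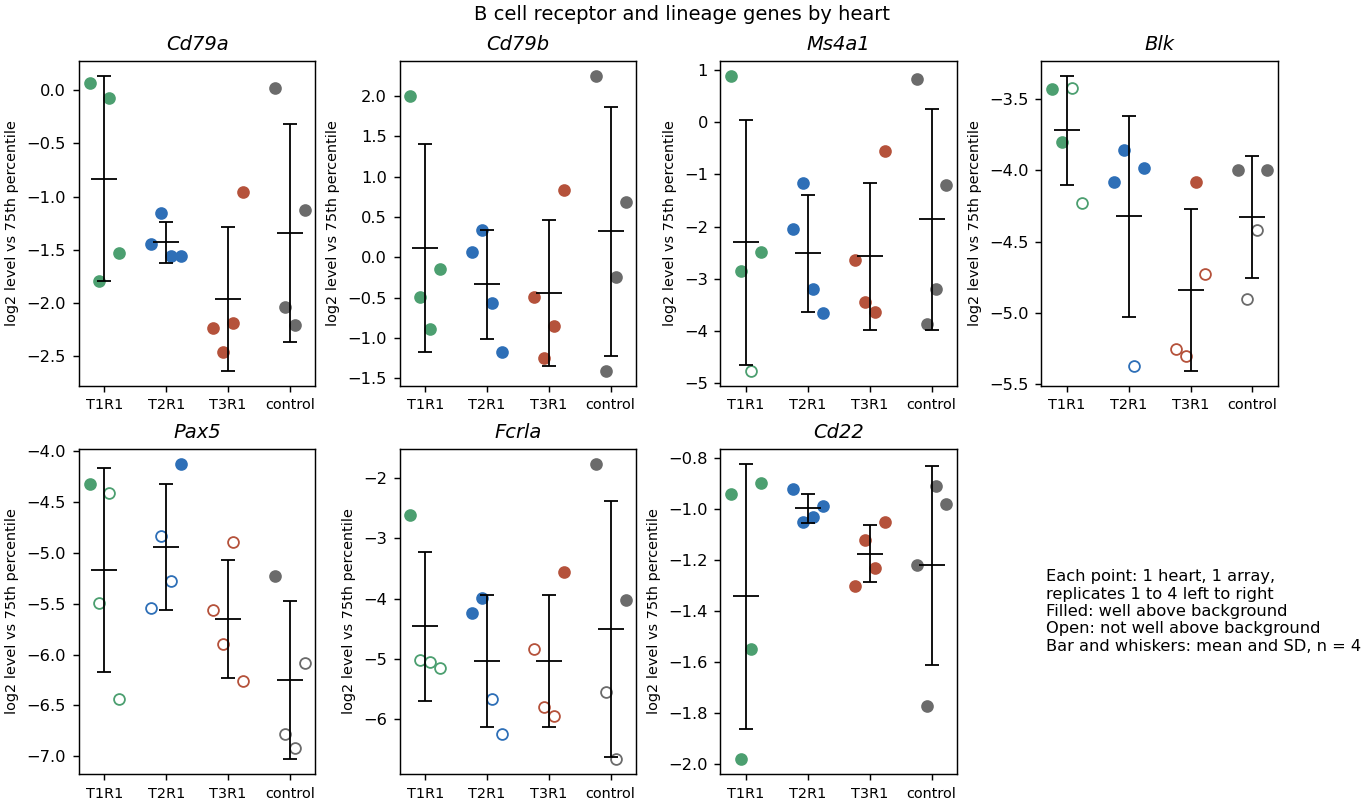
Levels of the 7 B cell genes in 16 hearts, by group (T1R1, T2R1, T3R1, control; x axis) as log2 brightness against the 75th percentile of each array (y axis). Points are single hearts, open where the probe was not well above background, and bars give the mean and SD of 4 hearts. In Cd79b, Ms4a1 and Fcrla the same hearts, control replicate 1 and T1R1 replicate 1, lie at the top, while Cd22 stays between -1.98 and -0.90.

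The dim members followed the same hearts only in part. Fcrla was well above background on 6 of 16 arrays, at -2.61 in T1R1 replicate 1, -4.24 and -3.99 in T2R1 replicates 1 and 2, -3.56 in T3R1 replicate 4, and -1.77 and -4.02 in control replicates 1 and 4. These are the 6 hearts with the highest Ms4a1 and the highest Cd79b. Blk was well above background on 8 of 16 arrays, with means of -3.72 ± 0.39 in T1R1, -4.32 ± 0.71 in T2R1, -4.84 ± 0.57 in T3R1 and -4.33 ± 0.43 in control (SD, n = 4 each). Pax5 reached that mark on 3 arrays by the first probe, namely T1R1 replicate 1, T2R1 replicate 4 and control replicate 1, and on 1 array by the second. Its level there was -4.33, -4.13 and -5.23 by the first probe, and no fold change between groups is given for it.

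The first question of the study's design is whether a length of exposure changes expression in the heart. Of the 4 B cell genes tested, 0 passed an adjusted p of 0.05 in any of the 6 comparisons between groups (limma with Benjamini-Hochberg adjustment over all features), in a setting where the share of all features called ranged widely. That share was 9.85% for T1R1 minus control, 18.4% for T2R1 minus control and 0.693% for T3R1 minus control. Between exposures it was 0% for T2R1 minus T1R1, 22.9% for T3R1 minus T1R1 and 27% for T3R1 minus T2R1. A test over all 4 groups called 0 of the 4 genes and 26.9% of all features. With 4 members tested, a count of 0 is no sign that they changed less often than other features. At an unadjusted p under 0.05 there was 1 call among the 24 values, Cd79a in T3R1 minus T1R1, where 36.5% of all features had such a p. In the other comparisons those shares were 25.9%, 30.9% and 22.5% for T1R1, T2R1 and T3R1 minus control, 7.84% for T2R1 minus T1R1 and 39.4% for T3R1 minus T2R1.

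**Figure D2:**
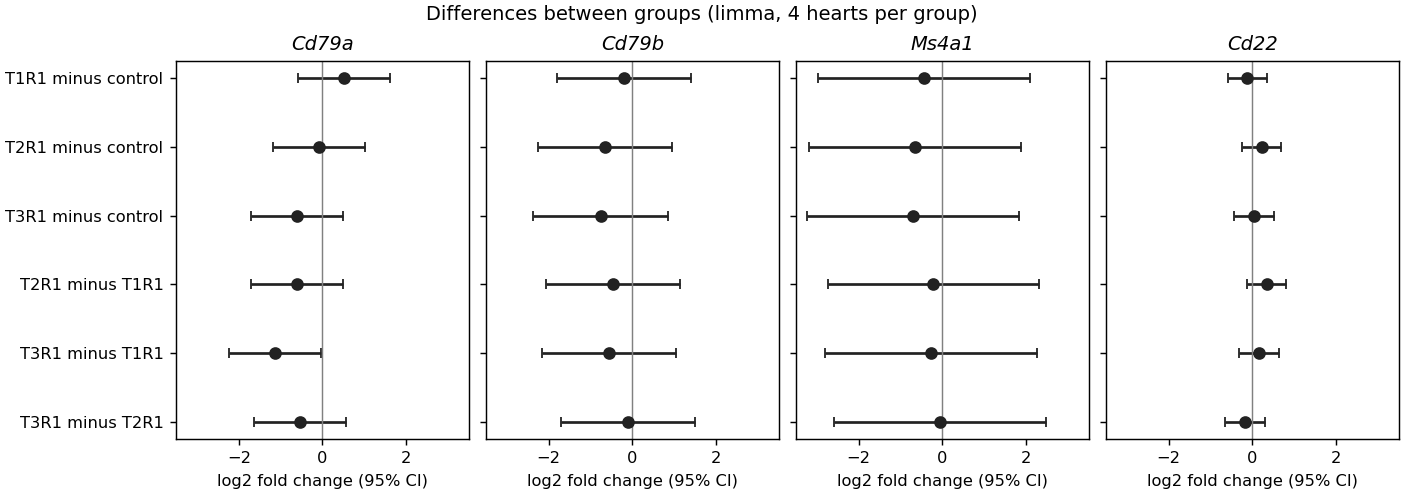
Log2 fold changes of the 4 tested B cell genes (x axis) for the 6 comparisons between groups (y axis), with 95% confidence intervals from limma on 4 hearts per group. The intervals of Ms4a1 are the widest, from -3.24 to 1.83 for T3R1 minus control, and those of Cd22 the narrowest, from -0.43 to 0.52 for the same comparison.

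For T3R1 minus control, within slide 1, Cd79a was at -0.62 ± 0.51 (log2 fold change ± SE, adjusted p = 0.487), Cd79b at -0.76 ± 0.75 and Ms4a1 at -0.71 ± 1.18. The 95% interval of Ms4a1 ran from -3.24 to 1.83, or from 0.106-fold to 3.55-fold, so a loss or a gain of several fold would not have been detectable. Cd22 was at 0.05 ± 0.22, with an interval from -0.43 to 0.52. The median of the 4 genes was -0.66, beside -0.08 over all features. Control replicate 1 carried much of that: without it Cd79a was at -0.17, Cd79b at -0.12 and Ms4a1 at 0.19. For T2R1 minus T1R1, within slide 2, the values were -0.60 ± 0.51 for Cd79a, -0.46 ± 0.75 for Cd79b, -0.21 ± 1.18 for Ms4a1 and 0.35 ± 0.22 for Cd22, with adjusted p from 0.697 to 0.976. T1R1 replicate 1 set the direction of Cd79b and Ms4a1 here, which were at 0.17 and 0.85 without it.

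Between slides, T1R1 minus control gave 0.51 ± 0.51 for Cd79a, -0.20 ± 0.75 for Cd79b, -0.44 ± 1.18 for Ms4a1 and -0.12 ± 0.22 for Cd22. T2R1 minus control gave -0.09 ± 0.51, -0.66 ± 0.75, -0.65 ± 1.18 and 0.23 ± 0.22 for the same genes in that order. The lowest adjusted p of the 4 tested members was 0.569 in T1R1 minus control and 0.538 in T2R1 minus control (limma). Among these 4 genes Cd79a in T3R1 minus T1R1 had the smallest p, at -1.14 ± 0.51 with an interval from -2.24 to -0.04 (limma, adjusted p = 0.126). That comparison includes the T1R1 heart on which the Cd79a probes disagreed. With no filter on dim probes, so that all 7 genes entered the fit, 0 were called. The nearest was Blk in T3R1 minus T1R1, at -1.12 ± 0.36 (adjusted p = 0.0551), with 1 of 4 T3R1 arrays and 2 of 4 T1R1 arrays well above background.

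For the 4 tested members most of the variance lay among hearts of 1 group. The SD within groups was 1.82 for Ms4a1, 1.15 for Cd79b, 0.79 for Cd79a and 0.33 for Cd22, beside a median of 0.23 over all tested features. Of all tested features, 99.8% had a smaller SD than Ms4a1, 98.9% a smaller SD than Cd79b, 96.4% a smaller SD than Cd79a and 70.3% a smaller SD than Cd22. Without control replicate 1 and T1R1 replicate 1 these SDs were 1.29, 0.79, 0.63 and 0.33, beside a median of 0.19, and 99.6% of features still varied less than Ms4a1. The share of the variance over 16 hearts that lay between the groups was 3.01% for Ms4a1, 9.01% for Cd79b, 15.9% for Cd22 and 25.8% for Cd79a. Among the dim members it was 4.68% for Fcrla, 36.6% for Pax5 and 42% for Blk. The median share over tested features was 40.8%. In whole-heart RNA, fewer B cells and less RNA per B cell cannot be told apart.

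Cd79b and Ms4a1 varied together from heart to heart. Over 16 hearts their levels correlated at r = 0.96 and rho = 0.95 (permutation tests with 100000 resamples, p = 1e-05 for each, the smallest they can give; adjusted p = 8e-05 over 16 relations). Within the slides r was 0.97 and 0.96, for deviations from the group means it was 0.97, and it was 0.91 without control replicate 1 and T1R1 replicate 1, the hearts farthest from the median. Cd79a correlated with Cd79b at r = 0.72 and rho = 0.69 (permutation tests, adjusted p = 0.01 and 0.014). For that relation r was 0.94 on slide 1, 0.52 on slide 2 and 0.41 without the same 2 hearts. Cd79a with Ms4a1 gave r = 0.59 and rho = 0.57 (permutation tests, adjusted p = 0.034 and 0.061), with 0.96 on slide 1, 0.29 on slide 2 and 0.17 without the 2 hearts. Slide 2 and the sets without the 2 hearts still held T1R1 replicate 3. On that heart Cd79a was at -0.07 by the first probe and -4.79 by the second, and Ms4a1 was at -4.77. These 2 relations of Cd79a were not computed without it. Cd22 gave r = 0.35 with Cd79b, 0.37 with Ms4a1 and 0.10 with Cd79a, and 0 of these passed (adjusted p = 0.29, 0.28 and 0.83). As a description, the dim Fcrla probe followed Ms4a1 at r = 0.90, the second Cd79a probe at 0.68, Blk at 0.27 and the Pax5 probes at 0.08 and -0.44.

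**Figure D3:**
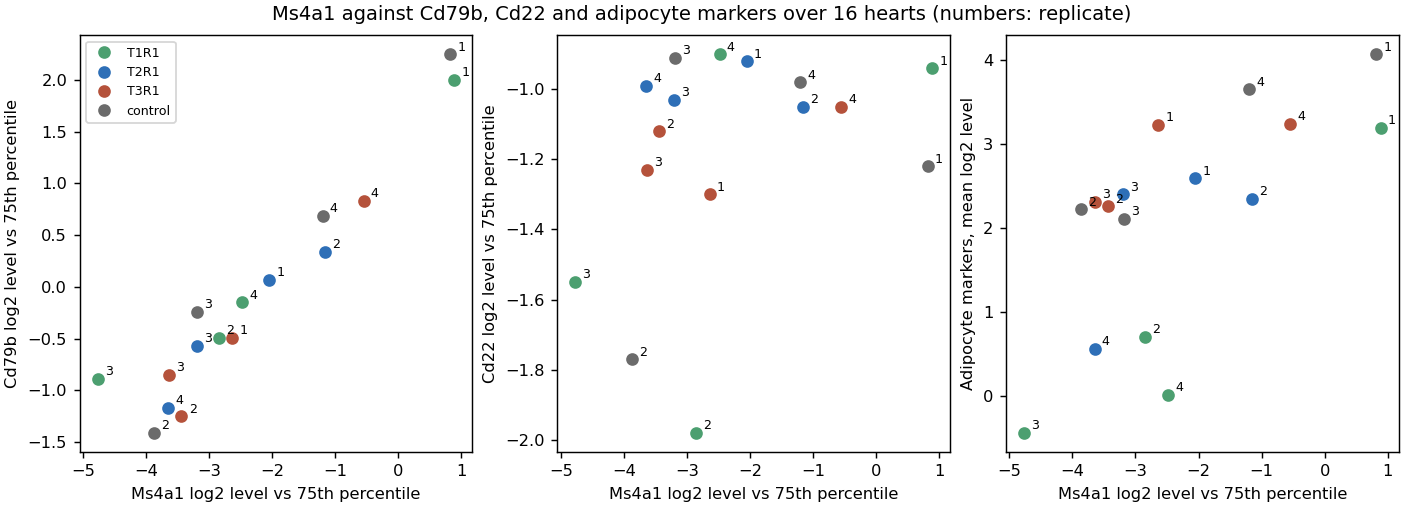
Level of Ms4a1 (x axis, log2 against the 75th percentile of the array) against Cd79b, Cd22 and the mean of 8 adipocyte markers (y axes, same scale) in 16 hearts, coloured by group and numbered by replicate. Cd79b rises with Ms4a1 through all 4 groups (r = 0.96), Cd22 does not follow it (r = 0.37), and the adipocyte markers follow it more loosely (r = 0.68).

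Promoter windows of RefSeq on GRCm38.p6, each of 300 bases around the start of a gene, were matched for Cd79a, Cd22, Fcrla and Pax5, which are 4 of the 7 members. The windows of Cd79a and Fcrla are printed as those of members whose levels were high in the same hearts, with the E-box letters CAGGTG in capitals.
Cd79a, plus strand, chr7:24897247-24897546: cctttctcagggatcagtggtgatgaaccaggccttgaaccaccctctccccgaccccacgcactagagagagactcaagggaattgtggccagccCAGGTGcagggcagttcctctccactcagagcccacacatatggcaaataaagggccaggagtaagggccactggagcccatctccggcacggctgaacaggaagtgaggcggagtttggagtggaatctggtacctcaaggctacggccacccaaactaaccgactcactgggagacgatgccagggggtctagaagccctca
Fcrla, minus strand, chr1:170927534-170927833: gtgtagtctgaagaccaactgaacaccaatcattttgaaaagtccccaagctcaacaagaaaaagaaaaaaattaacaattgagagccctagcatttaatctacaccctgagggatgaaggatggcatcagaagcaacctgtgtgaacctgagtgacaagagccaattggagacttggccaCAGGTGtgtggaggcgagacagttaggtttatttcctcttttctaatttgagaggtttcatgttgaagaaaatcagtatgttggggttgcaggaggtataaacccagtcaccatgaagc
CAGGTG or its reverse complement CACCTG was found in 3 of the 4 windows, those of Cd79a, Fcrla and Cd22, and in 20.2% of the 32851 RefSeq windows. The octamer ATGCAAAT or ATTTGCAT, known from immunoglobulin promoters, was found in 0 of the 4 windows and in 1.74% of all windows. A match describes letters in a window and not a bound site.

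The genes whose pattern was most like that of the members were mostly other B cell genes. Likeness was the correlation over 16 hearts with the mean of the standardised levels of Cd79a, Cd79b, Ms4a1 and Cd22, among 16759 other named genes. Among the 10 highest were Ly6d, a surface protein of early B lineage cells, at r = 0.945, and Faim3, the IgM Fc receptor, at 0.937. The 10 also held the transcript LOC100505358 at 0.925, the B cell scaffold protein Bank1 at 0.922 and the Ets factor Spib at 0.920. Lower among them were the adhesion molecule Cd2 at 0.903, Pou2af1, the coactivator of octamer factors, at 0.896, the lymphotoxin subunit Ltb at 0.890 and the immunoglobulin heavy variable segment Ighv14-2 at 0.885. These genes were selected for the likeness, so the values describe them and carry no test.

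Faim3 shows how closely the hearts line up. Its level was -0.21, -2.09, -2.42 and -1.72 in T1R1 hearts and -1.72, -1.40, -2.04 and -2.81 in T2R1 hearts. It was -2.36, -3.01, -2.79 and -0.66 in T3R1 hearts, against 0.72, -3.23, -1.92 and -0.90 in control hearts. T1R1 replicate 1 and control replicate 1 were again the highest and control replicate 2 the lowest. Pou2af1 was at -0.24 in T1R1 replicate 1 and -0.09 in control replicate 1, and at or below -2.07 in the other 14 hearts.

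**Figure D4:**
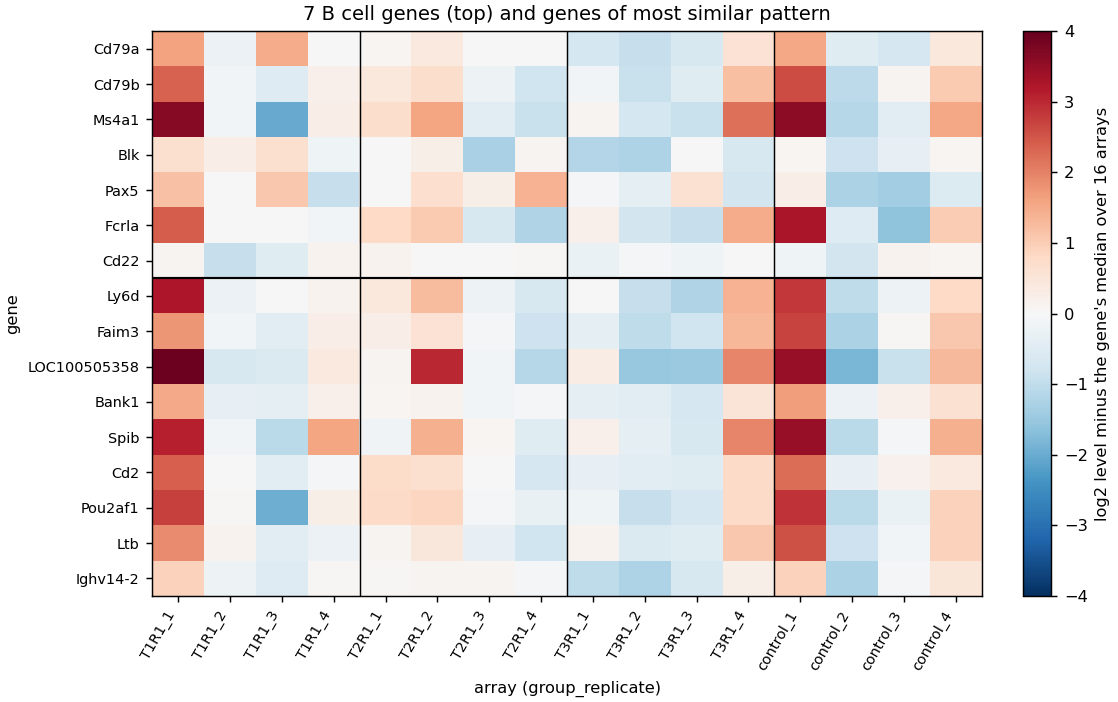
Levels of the 7 B cell genes (above the line) and of genes among the 10 most like them (below) in 16 hearts, ordered T1R1, T2R1, T3R1 and control on the x axis, with colour for the log2 level minus the median of the gene over the hearts. The columns of T1R1 replicate 1 and control replicate 1 are red in most rows, those of T3R1 replicate 4 and control replicate 4 less so, and the row of Cd22 is pale.

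A wider B cell list of surface and lineage genes other than the members had 36 entries, of which 32 were on the array. A correlation with Ms4a1 above 0.8 was found for 8 of these 32, beside 0.213% of the 22546 tested features without missing values. The sets differ, since 27 of the 32 were tested, and Cxcr5 and Ccr6, which count in the 8, were not. Among the 8, named after their values were seen, were Pou2af1, Spib, Faim3, Ly6d, Bank1 and the chemokine receptors Cxcr5 and Ccr6. Others did not follow Ms4a1: the light chain constant gene Igkc was at r = 0.05, the inhibitory coreceptor Cd72 at 0.16 and the lineage factor Ebf1 at 0.39. Of 36 BCR signalling genes on the array 0 were above 0.8. Of 12 plasma cell genes 2 were, the antibody joining chain Igj at 0.93 and 2010001M09Rik, the gene also called Mzb1, at 0.90. Igj was at 2.73 in T1R1 replicate 1 and 2.63 in control replicate 1, at 1.10 in T3R1 replicate 4, and well above background on 8 of 16 arrays, 2 in each group.

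Marker means of some other cell types and tissues moved with Ms4a1 in the same hearts. The mean of 12 plasma cell markers followed Ms4a1 at r = 0.93 and rho = 0.89 (permutation tests, adjusted p = 8e-05 each), with r = 0.85 without control replicate 1 and T1R1 replicate 1. Igj, which ran from -6.76 to 2.73, followed Ms4a1 at r = 0.93, and 2010001M09Rik did at 0.90. Irf4 was at 0.71, Derl3 at 0.58 and Tnfrsf17 at 0.44. The rest did not follow it: Sdc1 was at 0.21, Edem1 at 0.20, Cd38 at 0.09, Fkbp11 at 0.02, Xbp1 at -0.14, Ell2 at -0.24 and Prdm1 at -0.37. The relation of the mean is therefore not one of all 12 markers. The mean level of the 8 adipocyte markers followed Ms4a1 at r = 0.68 and rho = 0.71 (permutation tests, adjusted p = 0.014 and 0.013). It was at 0.91 on slide 1, 0.77 on slide 2 and 0.59 without control replicate 1 and T1R1 replicate 1. That mean was 3.19 in T1R1 replicate 1 and -0.44 to 0.70 in the other T1R1 hearts. It was 0.56 to 2.59 in T2R1 and 2.26 to 3.24 in T3R1, where replicate 4 was highest, against 4.07 and 3.65 in control replicates 1 and 4 and 2.22 and 2.11 in control replicates 2 and 3. Of these 8 markers 5 were well above background on all 16 arrays and 0 on none, and their summed signal, as a multiple of the 75th percentile, was 134 to 308 in T1R1, 146 to 244 in T2R1, 174 to 286 in T3R1 and 208 to 426 in control.

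The mean of the list for lymph node stroma gave r = 0.68 and rho = 0.57 with Ms4a1 (permutation tests, adjusted p = 0.01 and 0.061), with 0.85 on slide 1, 0.49 on slide 2 and 0.45 without the 2 hearts. Of the 6 markers of this list on the array 4 were above background on all 16 arrays and 0 on none. Their summed signal was 6 in T1R1 replicate 1 and 7.39 in control replicate 1, and 1.67 to 3.49 in the other 14 hearts. Cxcl13, the chemokine that draws B cells into follicles, was the 1 marker of that list above r = 0.8, with 1.99 in T1R1 replicate 1 and 2.02 in control replicate 1 against at most 0.27 elsewhere. The other markers followed Ms4a1 little: Glycam1, well above background on 1 array, was at r = 0.42, Madcam1 at 0.19, Ccl19 at 0.17, Fcgr4 at 0.08 and Clec4g at -0.09. The relation of the mean is therefore not one of all 6 markers, and the part of Cxcl13 in it was not tested. T cell markers gave r = 0.65 and rho = 0.41 (permutation tests, adjusted p = 0.014 and 0.23), but 0.10 without the 2 hearts, so that relation rests on them. Thymocyte markers were at a mean of -1.97 in T1R1 replicate 1 and from -4.82 to -3.57 in the other hearts, and were not related to Ms4a1 overall (r = 0.30, rho = 0.01, adjusted p = 0.38 and 0.98, permutation tests). Macrophage (r = 0.09), neutrophil (-0.05), erythroid (-0.42), liver (0.06) and cardiomyocyte (-0.25) means did not pass either (permutation adjusted p from 0.22 to 0.86). The part of fat, lymph node or thymus RNA in the B cell levels was not tested.

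The wider lists were also compared between groups. In the B cell surface and lineage list, with 27 tested genes, 2 were higher and 0 lower in T1R1 and likewise in T2R1 against control, where 7.75% and 14.8% of all features were higher and 2.1% and 3.59% lower. In T3R1 against control 0 passed in either direction, where 0.503% of all features were higher and 0.19% lower. The list median was 0.05, 0.03 and -0.28 in these comparisons, beside -0.01, 0.02 and -0.08 over all features. Without control replicate 1 the list median was 0.41, 0.34 and -0.05, beside -0.01, 0.02 and -0.13 over all features. The genes higher were Igkc and Ikzf3, a lymphoid zinc finger factor. Igkc was at -2.43, -2.75, -2.86 and -2.82 in T1R1 hearts and -2.46, -2.81, -2.25 and -2.34 in T2R1 hearts. It was -4.12, -4.09, -4.49 and -3.81 in T3R1 hearts, against -3.55, -3.22, -3.67 and -3.51 in control hearts.

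Hearts of T1R1 and T2R1 thus lay above the control hearts for Igkc, and those of T3R1 below them. Its fold change was 0.77 ± 0.16 (SE, adjusted p = 0.00826) in T1R1 and 1.02 ± 0.16 (adjusted p = 0.000804) in T2R1 minus control, both between slides. Within slide 1, T3R1 minus control was at -0.64 ± 0.16 (adjusted p = 0.0619), or -0.66 with an adjusted p of 0.0133 without control replicate 1. Under quantile scaling, median scaling, normexp and the authors' values the T1R1 difference was 0.26 to 0.36 and did not pass, and with quantile scaling the T2R1 difference was 0.66 and did not pass. T3R1 minus T1R1 was at -1.41 and T3R1 minus T2R1 at -1.66 on the log2 scale. These were -0.61 and -0.72 with normexp and -0.45 and -0.63 on the authors' values, and passed the threshold in each. Igkc was not well above background on 1 T1R1 and 1 T3R1 array. Its level lay between -4.49 and -2.25 over all hearts and did not follow Ms4a1 (r = 0.05). Which transcripts its probe reads was not tested. Ikzf3 was at 0.97 ± 0.25 (adjusted p = 0.0253) in T1R1 and 1.07 ± 0.25 (adjusted p = 0.00931) in T2R1 minus control. With normexp it was at 0.42 and 0.49, on the authors' values at 0.27 and 0.37, and passed in neither; with quantile scaling it was at 0.60 in T1R1 and did not pass. In T3R1 minus T1R1 the lower genes were Igkc, the zinc finger factor Bcl11a (-0.43 ± 0.08, adjusted p = 0.00225) and the inhibitory receptor Siglecg (-1.42 ± 0.39, adjusted p = 0.0189), where 15.3% of all features were lower. With median scaling Bcl11a was at -0.03 and Siglecg at -1.02 and neither passed, nor did Siglecg with quantile scaling (-1.17) or on the authors' values (-0.61). Siglecg was not well above background on 2 of the 4 T3R1 arrays. It was at -1.17 in T1R1 replicate 3, the array with the fewest spots above background, and at -2.27, -3.08 and -3.24 in the other T1R1 hearts.

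Single BCR signalling genes passed the threshold in T3R1 against the shorter exposures, between slides, in both directions. Of 33 tested genes 3 were higher and 2 lower in T3R1 minus T1R1, and 4 were higher and 1 lower in T3R1 minus T2R1, where 7.63% and 6.57% of all features were higher and 15.3% and 20.4% lower. The 5 genes called of 33 in each comparison were a smaller share than the 22.9% and 27% called over all features. In the same comparisons 5 and 4 of 9 macrophage markers were higher and 0 lower. The macrophage marker mean was 1.94 to 2.17 in T3R1 hearts, against 1.19 to 1.67 in T1R1 hearts and 1.32 to 1.68 in T2R1 hearts. The part of macrophages in the values that follow was not tested. The adaptor Dok1 was higher in T3R1 by 1.41 ± 0.31 against T1R1 and 1.28 ± 0.31 against T2R1 (limma, adjusted p = 0.00542 and 0.00761). The phosphatase Inpp5d, known as SHIP-1, was higher by 0.85 ± 0.24 and 0.76 ± 0.24, and the adaptor Dapp1 by 0.59 ± 0.12 and 0.55 ± 0.12. Nfkb1 was higher by 0.42 ± 0.10 against T2R1. It was at -0.38 ± 0.10 in T2R1 minus control (limma, adjusted p = 0.0151), the 1 gene of the list that passed against control. Rasgrp3, an exchange factor for Ras, was lower in both (-0.48 ± 0.16 and -0.51 ± 0.16), and Ifitm1, an interferon-induced membrane protein, was lower against T1R1 (-0.64 ± 0.14). With median scaling neither passed, with Rasgrp3 at -0.07 and -0.16 and Ifitm1 at -0.24, and Rasgrp3 against T1R1 was at -0.43 and did not pass without control replicate 1 and T1R1 replicate 1. In the plasma cell list of 10 tested genes the 1 gene that passed was Sdc1, a surface proteoglycan of plasma cells and epithelia. It was higher in T3R1 by 1.14 ± 0.27 against T1R1 and 0.93 ± 0.27 against T2R1. Within slide 1, T3R1 minus control was at 1.12 for Dok1, 0.62 for Inpp5d, 0.22 for Dapp1, 0.04 for Nfkb1 and 0.93 for Sdc1. That difference was -0.50 for Rasgrp3 and -0.47 for Ifitm1, and none of these passed (limma, adjusted p from 0.0775 to 0.824). None of the lists had a gene past the threshold in T2R1 minus T1R1 (limma, 0 of 27, 33 and 10). Among all features 0% were called there, and 7.84% had an unadjusted p under 0.05.

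Within slide 1 these lists depended on control replicate 1. Without it, T3R1 minus control had 14 BCR signalling genes higher and 4 lower of 33, 4 B cell surface and lineage genes higher and 2 lower of 27, and 4 plasma cell genes higher and 1 lower of 10, where 29.5% of all features were called. With it, 0 genes of these lists passed, where 0.693% of all features were called. The comparisons between slides moved too. Without that array 5 B cell surface and lineage genes were higher and 0 lower in T1R1 and in T2R1 minus control (17.9% and 24.3% of all features called). BCR signalling then had 8 genes higher and 2 lower in T3R1 minus T1R1 and 12 higher and 1 lower in T3R1 minus T2R1 (31.3% and 36.7% of all features called). With all arrays and median scaling, which moved the median of all features to 0.33 and 0.26 there, these were 18 and 0, and 16 and 0. That scaling called 8746 and 7683 of all 22648 features in the same comparisons. Some of the genes higher in T3R1 than in control without control replicate 1 are named here, chosen after their values were seen. The guanine nucleotide exchange factor Vav1 was at 1.49 ± 0.22 and the phosphatase Ptprc, known as CD45, at 1.31 ± 0.21. The kinase Btk was at 0.99 ± 0.16, and the adaptors Lat2 and Blnk at 1.87 ± 0.27 and 0.79 ± 0.17. Cd72 was at 2.01 ± 0.23 and the inhibitory IgG receptor Fcgr2b at 1.13 ± 0.15. Most of these named genes are also expressed in myeloid cells. The lower genes were Igkc (-0.66), Bcl11a (-0.30), Grb2 (-0.34), Pik3r1 (-0.54), Rasgrp3 (-0.61), Ifitm1 (-0.49) and Prdm1 (-0.56). The macrophage marker mean was 2.17, 1.94, 2.08 and 2.01 in T3R1 hearts, against 2.17 in control replicate 1 and 1.11, 1.15 and 1.36 in the other control hearts. The part of macrophages was not tested here either. Of the members, Cd79a, Cd79b, Ms4a1 and Cd22 stayed short of the threshold in the same fit (adjusted p from 0.819 to 0.921).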

How the data were processed

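RNA of 16 hearts was read on 1-colour Agilent arrays. Per the file headers, the deposited processed intensity came from Feature Extraction 10.7.3.1, which subtracted background and spatial trend, and mean spot intensity and local background were left uncorrected; flag columns hold 0 or 1. The value table the authors deposited holds log2 values with a median of 6.10, and each array has the rank order of its mean spot intensity; how it was made is not stated in the sources used here. The members, gene lists and tests were chosen with earlier results of these data known.

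Here, outlier spots were left out, log2 processed intensity was scaled to the 75th percentile of each array, with repeated spots of 1 probe averaged. Probes well above background on all 4 arrays of a group were kept (31390 of 55681), with the probe of highest mean per gene name, giving 22648 features. A linear model with a mean per group was run in limma 3.58.1 (R 4.3.3; 12 residual and 2.26 prior degrees of freedom), two-sided, with Benjamini-Hochberg adjustment. The script was tested on simulated data. Hearts were taken as separate samples as labelled. Correlations were tested by 100000 permutations, two-sided. Other genes are named where they passed the threshold with all arrays in the B cell, BCR signalling or plasma cell list. Genes among the 10 most like the members are named too. The plasma cell and lymph node stroma lists are given gene by gene for their correlations. A small p value short of the threshold was not a ground for naming a gene. Further genes were chosen after their values were seen. One gene is not reported here. Replicate numbers did not pair the arrays: 9 of 24 same-number pairs had deviations correlated above 0.1 (r from -0.32 to 0.39), and the fit was unpaired. Alternatives were normexp, quantile and median scaling, the authors' values, no filter, every probe, a trended robust prior, the replicate block, only the compared groups, and left-out arrays.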

Additional observations from a re-analysis of the deposited data

Results flagged for a closer look

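Among the 7 genes in 4 groups, 28 sets of 4 hearts were examined for a heart far from the other 3, and 2 were found, where chance gives about 1 in 20. Fcrla was at -2.61 in T1R1 replicate 1, with the nearest other T1R1 heart at -5.02. Blk was at -5.37 in T2R1 replicate 3, with the nearest other T2R1 heart at -4.08, and was not well above background there.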

How the results depend on the processing

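The count of members past the threshold was 0 in all 181 alternatives to the 7 counts. The smallest adjusted p of a member over alternatives was 0.0633 in T1R1 minus control (median scaling), 0.128 in T2R1 minus control, 0.272 in T3R1 minus control, 0.378 in T2R1 minus T1R1, 0.0551 in T3R1 minus T1R1 and 0.11 in T3R1 minus T2R1. Of 246 alternatives to the 24 fold changes that did not leave out a single array, 17 turned the sign of a value that was not called, and the cause was not tested. Without control replicate 1 and T1R1 replicate 1 together these were Cd79a (T2R1 minus control, 0.36), Cd79b (0.17 in T2R1 and 0.07 in T3R1 minus T1R1) and Ms4a1 (0.24 in T2R1 and 0.19 in T3R1 minus control, 0.85 in T2R1 and 0.80 in T3R1 minus T1R1). With median scaling they were Cd79b (0.25) and Cd22 (0.18) in T3R1 minus T2R1, Ms4a1 in T3R1 minus T1R1 (0.14) and minus T2R1 (0.30), and Cd22 in T2R1 minus control (-0.16). This scaling moved the median of all features to -0.44 in T1R1 and -0.37 in T2R1 minus control, and to 0.33 and 0.26 in T3R1 minus T1R1 and minus T2R1. Ms4a1 in T3R1 minus T2R1 was at 0.20 with quantile scaling and 0.11 on the authors' values, Cd22 with normexp at 0.01 in T1R1 minus control and 0 in T3R1 minus T1R1, and the second Cd79a probe gave 0.26 in T2R1 minus control. Leaving out 1 array at a time turned 27 of 384 values. The ranges were, for Cd79a, -0.38 to 0.36 in T2R1 minus control. For Cd79b they were -0.83 to 0.44 in T1R1 minus control, -0.79 to 0.17 and -0.98 to 0.07 in T2R1 and T3R1 minus T1R1, and -0.53 to 0.16 in T3R1 minus T2R1. For Ms4a1 they were -1.51 to 0.45, -1.32 to 0.24 and -1.38 to 0.19 in T1R1, T2R1 and T3R1 minus control, -1.03 to 0.85 and -1.08 to 0.80 in T2R1 and T3R1 minus T1R1, and -0.72 to 0.40 in T3R1 minus T2R1. For Cd22 they were -0.30 to 0.09 and -0.13 to 0.15 in T1R1 and T3R1 minus control, and -0.05 to 0.32 in T3R1 minus T1R1. The correlation of Cd79b with Ms4a1 lay between 0.94 and 0.98 under the other scalings and with 1 array left out at a time, and was 0.91 without control replicate 1 and T1R1 replicate 1 together. The replicate block left the count at 0 in each comparison, with Cd79a in T3R1 minus T1R1 at an adjusted p of 0.125, and for 5 of 16 arrays the closest other array had the same number. The dim probes of Blk, Pax5 and Fcrla limit what can be said of these genes.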
